A study of Mus musculus with 12 samples.

Results

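The genes of the unfolded protein response and of protein folding in the endoplasmic reticulum (ER) were followed in primary fibroblasts from mouse abdominal skin. The 36 genes were chosen by name from their known roles, with earlier results of these data known. All 36 were found among the 21556 genes of the count table. They comprise 5 chaperones, 6 co-chaperones and small ER stress proteins, 5 disulfide isomerases, 3 collagen folding proteins, 4 genes of ER-associated degradation, 6 sensors and transcription factors, 4 outputs of the PERK-ATF4-CHOP branch, and 3 genes of the translocon and cargo export. RNA was sequenced from 12 libraries, 3 in each of 4 groups. WT cells came from C57BL/6 mice and Nox4 KO cells from B6.129-Nox4tm1Kkr/J mice, a line in which the gene of the NADPH oxidase NOX4 was disrupted in the whole animal rather than in fibroblasts alone. Cells of each genotype were left untreated (control) or were given TGF-β2 at 10 ng/ml for 24 h after serum starvation. No source used here says whether the 3 libraries of a group came from separate mice, so p-values measure the spread between these libraries, which may be technical.

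Proteins that enter the secretory pathway fold in the ER, and fibroblasts, which secrete collagen in large amounts, depend on this machinery. When unfolded proteins accumulate, sensors in the ER membrane act in parallel. IRE1α, encoded by Ern1, splices the mRNA of Xbp1, ATF6 is cut in the Golgi to release a transcription factor, and PERK, encoded by Eif2ak3, phosphorylates eIF2α, which slows translation and allows ATF4 and CHOP (Ddit3) to accumulate. CREB3L1 and CREB3L2 are membrane-bound transcription factors cut in the same way as ATF6 and are known for driving secretory capacity and collagen transport in cells that make matrix. Since these counts are of reads per gene, the splicing of Xbp1, the cutting of ATF6, CREB3L1 and CREB3L2, and the phosphorylation of PERK were not measured. In bulk RNA, fewer cells of a type and less RNA per cell cannot be told apart.

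The promoters are shown because the ER stress element, through which ATF6 and NF-Y act, is the classical shared feature of ER chaperone genes. RefSeq promoter sequences (GRCm38.p6, 250 bases before to 50 after the gene start) were matched to 31 of the 36 genes. The element was searched as CCAAT, 9 bases of any kind and CCACG on both strands, and was found in 8 of the 31 promoters (25.8%) against 39 of all 32851 promoters (0.119%). A second form, ATTGG, 1 base of any kind and CCACG, was found in 2 of the 31 and in 0.0365% of all promoters. The 11-base second form and the 19-base first form did not overlap in any of these promoters. The elements are given below as they read on the strand that matches the motif, with the fixed letters in capitals and the spacer in lower case.
Hspa5 (chr2:34772025-34772043): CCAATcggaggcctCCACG
Hsp90b1, upstream copy (chr10:86705638-86705656): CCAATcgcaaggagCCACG
Hsp90b1, downstream copy on the opposite strand (chr10:86705533-86705551): CCAATcgtgcctcaCCACG
Calr, opposite strand (chr8:84847075-84847093): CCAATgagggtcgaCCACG
Canx (chr11:50325800-50325818): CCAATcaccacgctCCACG
Dnajc3 (chr14:118937827-118937845): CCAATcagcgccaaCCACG
Creld2, opposite strand (chr15:88819520-88819538): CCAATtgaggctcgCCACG
Pdia6 (chr12:17266491-17266509): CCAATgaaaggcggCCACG
Syvn1 (chr19:6046532-6046550): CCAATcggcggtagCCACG
Herpud1, second form (chr8:94386377-94386387): ATTGGgCCACG
Dnajb11, second form (chr16:22857852-22857862): ATTGGcCCACG

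The elements of the first form began between 212 and 44 bases before the gene start. These starts are those of RefSeq. The GENCODE start of Hspa5, used for its gene position below, is chr2:34771970, which lies upstream of the element. The whole Hspa5 promoter (chr2:34771840-34772139, plus strand), which carries the element 65 bases before the RefSeq start, reads as follows with the fixed letters of the element in capitals.
Hspa5 promoter: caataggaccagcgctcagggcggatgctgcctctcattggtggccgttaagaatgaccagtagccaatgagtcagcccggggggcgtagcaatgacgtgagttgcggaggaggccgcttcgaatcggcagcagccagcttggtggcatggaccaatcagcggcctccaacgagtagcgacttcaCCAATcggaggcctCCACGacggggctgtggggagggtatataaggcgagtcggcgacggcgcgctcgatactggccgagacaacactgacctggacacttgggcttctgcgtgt

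The XBP1 site TGACGTGG was present in 0 of the 31 promoters and in 0.676% of all promoters. The ATF4 site TGATGCAA was found in 2 of the 31, those of Herpud1 and Chac1, and in 0.895% of all promoters. The absence of a match says only that these letters are not in the window of 300 bases.

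The libraries held between 35118344 and 43796260 counted reads, and the lowest count of any of the 36 genes in any library was 754, so counting error was small for all of them. Nox4 itself was at 1.48, 1.31 and 2.43 RPKM (a read count scaled to exon length and to the library total) in WT control, 10.9, 8.56 and 16.3 in stimulated WT, 0.655, 0.636 and 1.4 in Nox4 KO control, and 4.54, 4.39 and 6.85 in Nox4 KO with TGF-β2. Its count is over all exons of the gene, disrupted or not, and its difference between the genotypes did not pass the test (log2 fold change -0.99 in control, adjusted p = 0.828, and -1.17 after TGF-β2, adjusted p = 0.838), so it is no check of the genotype labels. All 6 fibroblast markers were above 1 RPKM in every library, but their levels were not all alike in control and TGF-β2: Pdgfra, a receptor of fibroblast lineages, went from a mean of 39.9 to 3.79 RPKM in WT and from 27.7 to 3.31 in Nox4 KO, and Thy1 from between 485 and 569 to between 283 and 424 in WT and from between 354 and 608 to between 259 and 317 in Nox4 KO. The myofibroblast gene Acta2 had log2 fold changes of 0.13 (adjusted p = 0.664) in WT and -0.06 (adjusted p = 0.820) in Nox4 KO. Summed adipocyte markers moved with TGF-β2, from 2.86 to 5.58 RPKM in WT control to 0.524 to 1.21 with TGF-β2, and from 0.660 to 3.93 in Nox4 KO control to 0.180 to 0.707 with TGF-β2. Myeloid marker sums reached 107 RPKM and overlapped between all groups. The part of these marker differences in the results was not tested.

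One library stood apart. In WT TGF-β2 replicate 2, the deviation from its group mean fell with gene length (Pearson r = -0.60 across 10890 genes, which are not independent replicates). Its median deviation was 0.37 on the log2 scale for genes up to 1500 bases long and -0.30 for genes over 6000 bases. Replicates 1 and 3 of that group, whose deviations are taken from the same mean, had r = 0.35 and 0.44, and the other 9 libraries lay between -0.11 and 0.08. Replicate 2 was the highest of its group for 23 of the 36 genes and the lowest for 11. The WT log2 fold change of each of the 36 genes, and their count of calls, are therefore also given without this library.

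**Figure D1:**
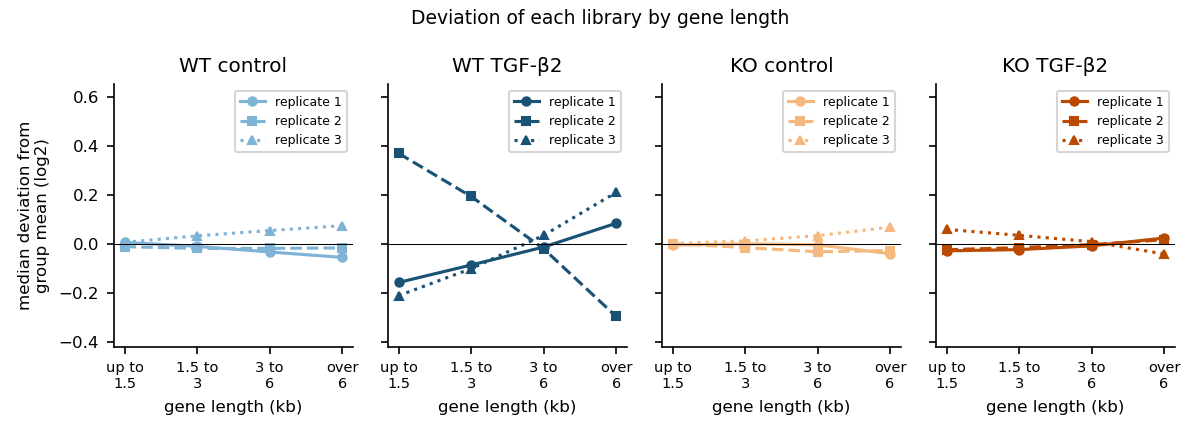
Median deviation of each library from the mean of its group (log2 scale) against gene length in kilobases, 1 panel per group and 1 line per replicate. The line of WT TGF-β2 replicate 2 falls from 0.37 to -0.30, while the libraries of the control groups and of Nox4 KO with TGF-β2 stay within 0.08 of 0.

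As a whole, the 36 genes took a larger share of the reads after TGF-β2. They held 1.82%, 1.80% and 1.86% of the counts in WT control and 2.10%, 2.34% and 2.10% in stimulated WT. The Nox4 KO libraries held 1.82%, 1.88% and 1.84% in control and 1.96%, 2.06% and 2.15% with TGF-β2. The control and TGF-β2 libraries did not overlap in either genotype, and the highest of the 12 shares was that of WT TGF-β2 replicate 2. On a length-corrected scale (TPM, in which the levels of all genes of a library sum to the same total), where that library no longer led its group, the sums were 21339 ± 304 and 24172 ± 76.1 in WT and 21230 ± 278 and 23813 ± 575 in Nox4 KO (mean ± SD, n = 3) for control and TGF-β2.

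**Figure D2:**
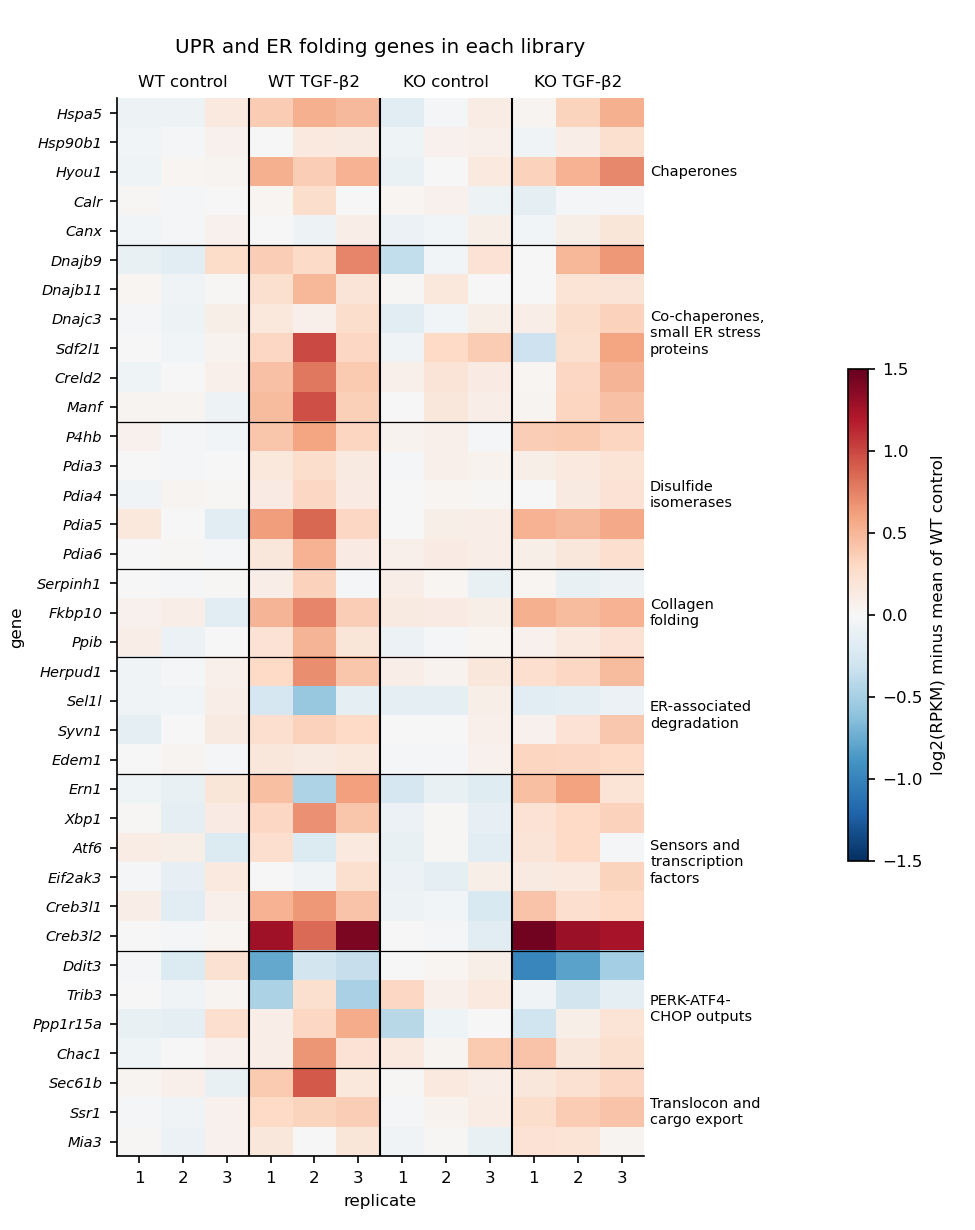
Level of each of the 36 genes (rows, grouped by role) in each of the 12 libraries (columns, 3 replicates per group), as log2(RPKM) minus the mean of WT control, with red above and blue below it. Most rows turn red with TGF-β2 in both genotypes, most deeply Creb3l2, and Ddit3 turns blue.

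Below, a gene passed, rose or fell by the unpaired edgeR fit of all libraries of the groups compared, unless another fit is named. In WT, 14 of the 36 genes rose with TGF-β2 and 0 fell, at an adjusted p under 0.05 and any size of change, whereas 10.4% of the 10743 genes tested rose and 12.2% fell. Without replicate 2 of the TGF-β2 group, 18 rose and 1 fell, while calls over all genes also became more frequent (1643 higher and 1756 lower of 10750, against 1117 and 1308 of 10743 with it). With 1 of the other WT libraries left out instead, between 2 and 14 rose and 0 fell, and between 520 and 1040 of all genes rose. The median log2 fold change was 0.35 over the 36 genes and -0.003 over all genes tested. In Nox4 KO, 17 rose and 1 fell, with 15.1% of 10809 genes rising and 14.9% falling, and the medians were 0.28 and -0.014. With the replicate numbers as pairs, for which the check of pairing was met in Nox4 KO only, 25 rose and 2 fell in Nox4 KO, and again more of all genes were called (2729 higher and 3113 lower of 10809, against 1637 and 1606 unpaired). With library totals as the only scaling, which placed the median of all genes in Nox4 KO at -0.10, 10 rose and 2 fell there (1032 of all genes rose and 2122 fell), and with upper-quartile scaling 14 rose and 1 fell (1216 and 1969 of all genes). The changes were small: at a fold of at least 2, 1 of the 36 genes rose and 0 fell in each genotype, against 2.62% of all genes rising and 5.09% falling in WT and 2.22% and 4.58% in Nox4 KO. Genes called higher in both genotypes numbered 10, which is 71.4% of the WT list and 58.8% of the Nox4 KO list. The same overlap was not counted over all genes, so whether these shares are particular to the 36 genes was not tested. In neither genotype were 14 of the 36 genes called.

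**Figure D3:**
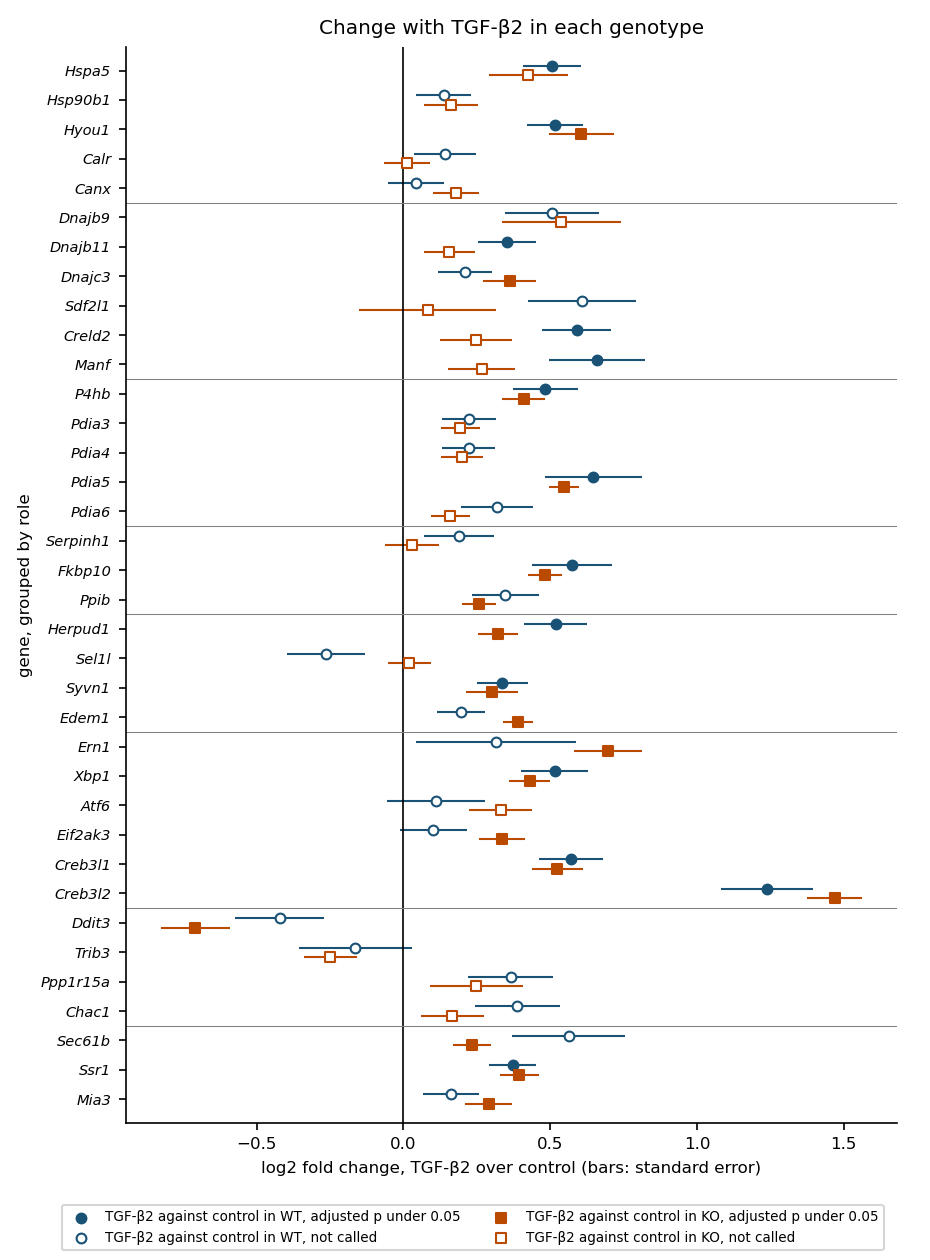
Log2 fold change of TGF-β2 over control for each of the 36 genes, in WT (circles) and Nox4 KO (squares), with bars of 1 standard error and filled symbols for an adjusted p under 0.05. Creb3l2 lies farthest to the right in both genotypes, at 1.24 and 1.47, and Ddit3 farthest to the left, at -0.42 and -0.71.

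Among the sensors and transcription factors, 3 of 6 rose in WT and 5 of 6 in Nox4 KO, and this group held the only gene past a fold of 2. Creb3l2 (chr6:37327255-37442146, GRCm38, minus strand) was at 21.1, 21 and 21.6 RPKM in WT control and 51.3, 38.5 and 56.5 with TGF-β2. In Nox4 KO it was at 21.3, 20.9 and 19.1 in control and 58.1, 52.0 and 49.9 with TGF-β2. The groups were far apart in both genotypes, and the lowest TGF-β2 value, from WT replicate 2, was still well above every control. TGF-β2 raised it by 1.24 on the log2 scale (standard error 0.16, with an adjusted p of 0.00320) in WT, by 1.39 without that replicate, and by 1.47 (0.09, adjusted p = 0.00126) in Nox4 KO. Its relative Creb3l1, which like Creb3l2 is cut by Golgi proteases, was at 68.4, 56.8 and 67.7 RPKM in WT control against 92.2, 100.5 and 86.1 with TGF-β2, and at 60.9, 62.3 and 54.8 against 86.1, 76.5 and 78.6 in Nox4 KO. It rose by 0.57 (0.11, adjusted p = 0.0119) and 0.52 (0.09, adjusted p = 0.00959) on the log2 scale, with no overlap between control and TGF-β2, and the WT value was 0.53 without replicate 2.

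Of the IRE1α branch, Xbp1 was at 59.9, 54.0 and 64.4 RPKM in WT control and 73.8, 95.2 and 79.0 with TGF-β2, and at 55.8, 59.9 and 54.6 against 68.7, 72.7 and 75.1 in Nox4 KO. It rose by 0.51 (0.11, adjusted p = 0.0205) in WT, 0.42 without replicate 2, and 0.43 (0.07, adjusted p = 0.00949) in Nox4 KO. Ern1, whose product splices Xbp1 mRNA, had the lowest mean level of the 36 genes in every group, at 5.30, 5.12 and 6.28 RPKM in WT control and 7.61, 4.03 and 8.47 with TGF-β2. The 4.03 of replicate 2, in a gene of 8157 bases, lay below every control, while the other TGF-β2 libraries lay above them. The WT change of 0.32 (0.27) did not pass the test, and without replicate 2 it was 0.59 (adjusted p = 0.00887). In Nox4 KO, Ern1 went from 4.66, 5.14 and 4.88 to 7.58, 8.43 and 6.4 RPKM, a rise of 0.70 (0.12, adjusted p = 0.00959) without overlap.

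The other sensors had smaller log2 fold changes in WT. Eif2ak3 was at 9.08, 8.55 and 10.3 RPKM in WT control and 9.23, 8.92 and 11.0 with TGF-β2, and at 8.72, 8.46 and 9.86 against 10.2, 10.2 and 11.7 in Nox4 KO. It rose in Nox4 KO (0.34, standard error 0.08, adjusted p = 0.0253), whereas its WT change of 0.10 (0.11, and 0.17 without replicate 2) did not pass and the WT groups overlapped. Atf6, whose protein is activated by cutting, was at 17.5, 17.2 and 14 against 19.3, 14 and 17.9 RPKM in WT and at 14.9, 16.3 and 14.5 against 18.6, 19.8 and 15.8 in Nox4 KO. Both groups overlapped in each genotype. Its values of 0.11 (0.17, and 0.24 without replicate 2) in WT and 0.33 (0.11, adjusted p = 0.0629) in Nox4 KO did not pass, although with the Nox4 KO libraries paired the adjusted p was 0.00472.

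**Figure D4:**
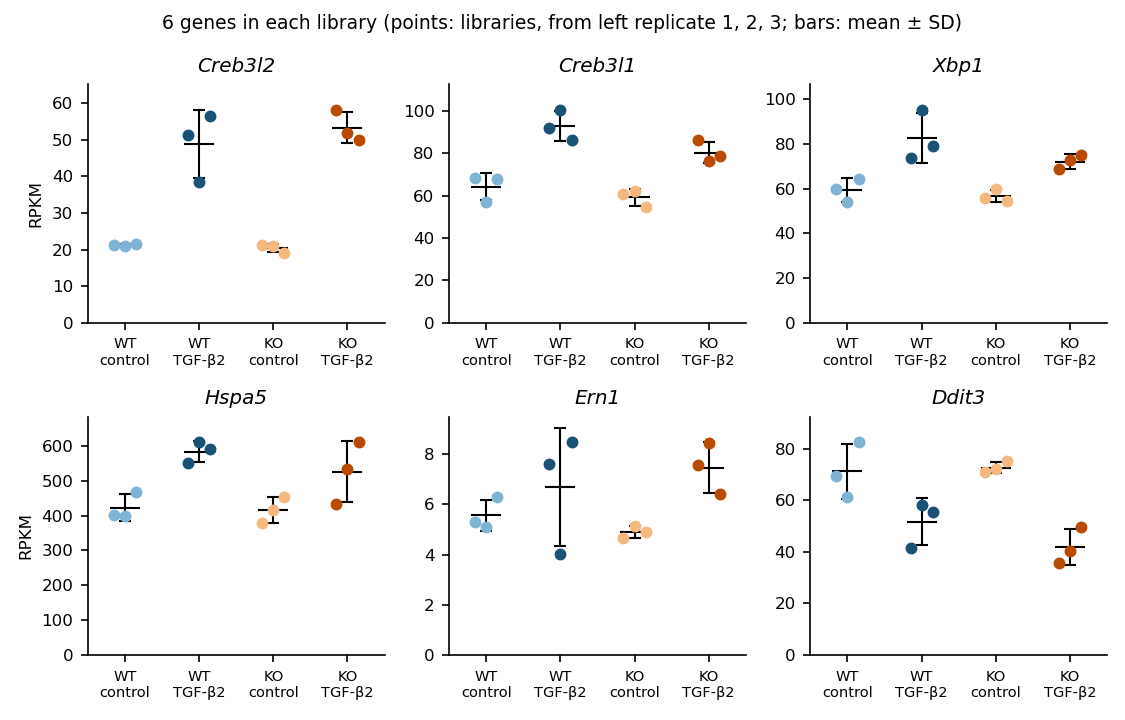
RPKM of 6 of the genes in each library, by group, with replicates 1 to 3 from left to right and bars for the mean and SD. Creb3l2 with TGF-β2 lies between 38.5 and 58.1, above all controls, and the low second point of Ern1 in WT with TGF-β2 is replicate 2.

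Among the chaperones, 2 of 5 rose in WT and 1 of 5 in Nox4 KO. Hspa5 (chr2:34771970-34777547, plus strand), which encodes BiP, the ER member of the HSP70 family that also holds the sensors inactive, was at 401, 400 and 466 RPKM in WT control and 550, 610 and 591 with TGF-β2. In Nox4 KO it was at 377, 416 and 454 in control and 434, 533 and 610 with TGF-β2. The WT groups did not overlap, whereas the lowest TGF-β2 library of Nox4 KO lay below the highest control. The rise was 0.51 (0.10, adjusted p = 0.0133) in WT, 0.49 without replicate 2, and the Nox4 KO change of 0.43 (0.14, adjusted p = 0.0585) did not pass, while it did with the libraries paired (adjusted p = 0.00500) and with DESeq2 (adjusted p = 0.0109). Hyou1, a large chaperone that acts as a nucleotide exchange factor of BiP, was at 70.3, 75.0 and 76.0 against 107, 95.2 and 106 RPKM in WT and at 68.8, 74.3 and 81.4 against 93.9, 106 and 122 in Nox4 KO. It rose by 0.52 (0.10, adjusted p = 0.0114) and 0.61 (0.11, adjusted p = 0.0119) with no overlap, and the WT value was 0.58 without replicate 2.

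The other 3 chaperones did not pass the test in either genotype. Hsp90b1 (GRP94, the ER member of the HSP90 family) ranged from 815 to 1009 RPKM over the 12 libraries and Calr (calreticulin, a lectin chaperone of glycoproteins) from 792 to 1049. Their log2 fold changes were 0.14 (0.09) and 0.14 (0.11) in WT, 0.12 and 0.07 without replicate 2, and 0.16 (0.09) and 0.01 (0.08) in Nox4 KO. Canx (calnexin, the membrane-bound lectin chaperone) ranged from 211 to 254 RPKM, with values of 0.04 (0.10) in WT, 0.10 without replicate 2, and 0.18 (0.08) in Nox4 KO, and the latter had an adjusted p of 0.0306 with the libraries paired. These 3 genes and Hspa5 each carry the ER stress element shown above.

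Of the 6 co-chaperones and small ER stress proteins, 3 rose in WT and 1 in Nox4 KO. Manf, a small protein of the ER lumen that is partly secreted, was at 74.7, 74.7 and 68.8 RPKM in WT control and 101, 142 and 93.1 with TGF-β2, and at 72.5, 81.8 and 78.1 against 74.5, 90.6 and 98.3 in Nox4 KO. Creld2, another small ER stress protein, was at 42.1, 43.7 and 46.2 against 59.7, 76.3 and 57.5 in WT and at 46.3, 50.2 and 47.9 against 44.7, 54.5 and 62.4 in Nox4 KO. For both genes WT replicate 2 was the highest of all libraries, the WT groups were apart and the Nox4 KO groups overlapped. Manf rose by 0.66 (0.16, adjusted p = 0.0300) in WT and by 0.47 without replicate 2, and had a value of 0.27 (0.11, adjusted p = 0.123) in Nox4 KO, where the paired fit gave an adjusted p of 0.0291. Creld2 rose by 0.59 (0.12, adjusted p = 0.0140) in WT and by 0.47 without replicate 2, and had a value of 0.25 (0.12, adjusted p = 0.172) in Nox4 KO.

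The J-domain proteins hand substrates to BiP. Dnajb11 was at 55.4, 52.4 and 54.9 RPKM in WT control and 64.0, 76.3 and 62.1 with TGF-β2, and at 54.9, 60.3 and 54.5 against 53.8, 62.3 and 62.2 in Nox4 KO. It rose in WT (0.35, standard error 0.10, adjusted p = 0.0454, and 0.27 without replicate 2) and did not pass, at 0.16 (0.09), in Nox4 KO, where the groups overlapped. Dnajc3 (p58IPK, also an inhibitor of PERK) was at 49.8, 48.0 and 53.6 against 56.3, 53.3 and 60.4 in WT and at 45.1, 49.2 and 53.4 against 53.9, 60.6 and 64.2 in Nox4 KO. It passed in Nox4 KO (0.36, standard error 0.09, adjusted p = 0.0293), and in WT, at 0.21 (0.09), it did not, although it did without replicate 2 (0.26, adjusted p = 0.0320) and with the length trend of each library removed (0.29, adjusted p = 0.0114). Dnajb9, which encodes ERdj4, ranged from 9.19 to 19.8 RPKM and Sdf2l1, a partner of the J-domain proteins, from 15.9 to 39.0. Neither passed in either genotype, at 0.51 (0.16) and 0.61 (0.18) in WT and 0.54 (0.20) and 0.08 (0.23) in Nox4 KO. Both passed in WT without replicate 2, at 0.61 (adjusted p = 0.0351) and 0.37 (adjusted p = 0.0112), and with DESeq2 (adjusted p = 0.0264 and 0.0127). Dnajb9 also passed in Nox4 KO in the paired fit (0.53, adjusted p = 0.00140) and with DESeq2 (adjusted p = 0.0434).

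Of the 5 disulfide isomerases, which form and rearrange the disulfide bonds of secreted proteins, the same 2 rose in both genotypes. P4hb, which is also the β subunit of collagen prolyl 4-hydroxylase, was at 657, 619 and 611 RPKM in WT control and 839, 943 and 787 with TGF-β2, and at 653, 664 and 614 against 810, 824 and 783 in Nox4 KO. Pdia5 was at 51.5, 46.3 and 40.8 against 70.8, 83.7 and 57.1 in WT and at 46.3, 48.8 and 49.2 against 65.8, 64.6 and 68.3 in Nox4 KO. The groups were apart for both genes in both genotypes, and the libraries of Pdia5 lay closer together in Nox4 KO than in WT. P4hb rose by 0.48 (0.11, adjusted p = 0.0230) and 0.41 (0.07, adjusted p = 0.0115), and Pdia5 by 0.65 (0.16, adjusted p = 0.0327) and 0.55 (0.05, adjusted p = 0.00267). Without WT TGF-β2 replicate 2 the WT values were 0.42 for P4hb and 0.52 for Pdia5, and the latter no longer passed (adjusted p = 0.0526). The other 3, Pdia3 (ERp57, the partner of the lectin chaperones; 529 to 645 RPKM), Pdia6 (310 to 453) and Pdia4 (197 to 253) had log2 fold changes of 0.22 (0.09), 0.32 (0.12) and 0.22 (0.09) in WT, of 0.20, 0.20 and 0.17 without replicate 2, and of 0.19 (0.07), 0.16 (0.07) and 0.20 (0.07) in Nox4 KO, and none passed. In the paired fit of Nox4 KO, Pdia3 (adjusted p = 0.0292) and Pdia4 (adjusted p = 0.0358) did pass. Over the 10 alternatives that keep every library, Pdia3 and Pdia4 each passed in 2 in WT and in 4 in Nox4 KO. Pdia6 passed in 3 in WT and in 2 in Nox4 KO.

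The collagen folding proteins did not move alike. Fkbp10, a prolyl isomerase (FKBP65) that acts on procollagen, was at 247, 252 and 211 RPKM in WT control and 337, 392 and 304 with TGF-β2, and at 259, 256 and 251 against 342, 328 and 338 in Nox4 KO. It rose by 0.58 (0.14, adjusted p = 0.0259) in WT, 0.49 without replicate 2, and 0.48 (0.06, adjusted p = 0.00461) in Nox4 KO, with no overlap. Ppib, the cyclophilin of the collagen prolyl 3-hydroxylation complex, was at 101, 88.4 and 93.6 against 109, 134 and 107 in WT and at 88.4, 92.5 and 96.2 against 98.6, 104 and 109 in Nox4 KO. It passed in Nox4 KO (0.26, standard error 0.06, adjusted p = 0.0223) and not in WT (0.35, standard error 0.11, adjusted p = 0.0687, and 0.25 without replicate 2), although the groups were apart in both. In WT, Ppib passed in 3 of the 10 alternatives that keep every library. Serpinh1 (HSP47, the collagen-specific chaperone), the most abundant of the 36 genes at 1128 to 1554 RPKM, did not pass in either genotype (0.19, standard error 0.12, in WT, 0.10 without replicate 2, and 0.03, standard error 0.09, in Nox4 KO). Serpinh1 lies 11.9 Mb from Nox4 on chromosome 7.

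In ER-associated degradation, which returns misfolded proteins to the cytosol, 2 of 4 genes rose in WT and 3 of 4 in Nox4 KO. Herpud1, an adaptor of the retrotranslocation complex, was at 51.0, 52.1 and 55.7 RPKM in WT control and 65.3, 85.8 and 70.4 with TGF-β2, and at 56.9, 54.9 and 59.6 against 63.0, 65.8 and 73.2 in Nox4 KO. Syvn1 (HRD1, the ubiquitin ligase) was at 26.0, 28.9 and 31.5 against 34.2, 36.5 and 35.4 in WT and at 28.7, 28.7 and 30.2 against 30.1, 33.5 and 38.1 in Nox4 KO. Except for Syvn1 in Nox4 KO, whose lowest TGF-β2 library lay within the controls, the groups were apart. Herpud1 rose by 0.52 (0.11, adjusted p = 0.0165) and 0.32 (0.07, adjusted p = 0.0186), and Syvn1 by 0.34 (0.09, adjusted p = 0.0325) and 0.30 (0.09, adjusted p = 0.0478). Without WT TGF-β2 replicate 2 the WT rises were 0.41 and 0.33.

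Edem1, which draws mannose-trimmed glycoproteins to degradation, was at 30.3, 31.3 and 29.8 RPKM in WT control and 34.4, 33.5 and 34.1 with TGF-β2, and at 30.1, 29.8 and 31.8 against 38.0, 37.6 and 37.6 in Nox4 KO. The TGF-β2 libraries were above the controls in both genotypes, and those of Nox4 KO were above those of WT. It rose in Nox4 KO by 0.39 (0.05, adjusted p = 0.00522), whereas the WT change of 0.20 (0.08, adjusted p = 0.134, and 0.22 without replicate 2) did not pass. In WT, Edem1 passed in 2 of the 10 alternatives that keep every library, and its values over all settings lay between 0.14 and 0.31. Sel1l, the partner of HRD1, ranged from 27.8 to 44.1 RPKM, with its lowest value in WT TGF-β2 replicate 2. It was the only gene of opposite sign in the genotypes, at -0.26 (0.13, adjusted p = 0.195) and 0.02 (0.07), and it passed in neither. Without that replicate its WT value was -0.14.

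Of the outputs of the PERK-ATF4-CHOP branch, 0 of 4 rose in either genotype, although Chac1 did in WT with the length trend removed (0.25, adjusted p = 0.0447) and Ppp1r15a did in the paired fit of Nox4 KO (0.24, adjusted p = 0.00910). Ddit3 (chr10:127290774-127296288, plus strand), which encodes the pro-apoptotic factor CHOP, was at 69.7, 61.5 and 82.6 RPKM in WT control and 41.4, 58.3 and 55.6 with TGF-β2, and at 70.9, 72.1 and 75.3 against 35.7, 40.5 and 49.6 in Nox4 KO. All TGF-β2 libraries lay below all controls of their genotype. In Nox4 KO its log2 level fell by 0.71 (standard error 0.12, adjusted p = 0.00952), and the WT change of -0.42 (0.15, adjusted p = 0.0905) did not pass with or without replicate 2 (-0.50, adjusted p = 0.0634). It did pass in WT in 3 of the 10 alternatives that keep every library, among them removal of the length trend (-0.60, adjusted p = 0.0379). Trib3, a pseudokinase induced by ATF4 and CHOP, was at 23.3, 22.3 and 23.9 against 16.7, 27.3 and 16.6 RPKM in WT and at 28.8, 24.4 and 25.7 against 22.3, 19.1 and 21.1 in Nox4 KO. Its WT TGF-β2 replicate 2 lay above every WT control and the other replicates below them. It passed in neither genotype (-0.16, standard error 0.19, and -0.25, standard error 0.09), fell by 0.43 in WT without that replicate (adjusted p = 0.00680), and fell by 0.25 in the paired fit of Nox4 KO (adjusted p = 0.00944).

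Ppp1r15a (GADD34, which directs the dephosphorylation of eIF2α) ranged from 16.7 to 32.7 RPKM and Chac1, a glutathione-degrading enzyme induced by ATF4, from 14.1 to 23.4. Their values of 0.37 (0.14) and 0.39 (0.14) in WT, of 0.39 and 0.22 without replicate 2, and of 0.25 (0.16) and 0.17 (0.11) in Nox4 KO did not pass.

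Of the genes of the translocon and of cargo export, 1 of 3 rose in WT and 3 of 3 in Nox4 KO. Ssr1, a subunit of the translocon-associated protein complex, was at 29.2, 28.4 and 30.9 RPKM in WT control and 36.2, 37.2 and 38.0 with TGF-β2, and at 29.0, 30.6 and 32.0 against 35.5, 38.3 and 39.6 in Nox4 KO. It rose by 0.37 (0.08, adjusted p = 0.0188) in WT, 0.39 without replicate 2, and 0.40 (0.07, adjusted p = 0.0103) in Nox4 KO. Mia3 (TANGO1, which loads procollagen into export carriers) was at 39.4, 36.8 and 40.8 against 44, 39.1 and 44.1 in WT and at 37.7, 39.4 and 36.2 against 45.3, 45.1 and 40.2 in Nox4 KO. The WT groups of Mia3 overlapped through replicate 2. It rose in Nox4 KO (0.29, standard error 0.08, adjusted p = 0.0395), a call that held in 1 of the 6 fits that leave out 1 library. In WT, at 0.16 (0.10), it passed only without replicate 2 (0.23, adjusted p = 0.0394). Sec61b, a subunit of the channel through which new proteins enter the ER, was at 56.5, 57.7 and 50.9 RPKM in WT control and 72.3, 104 and 61.5 with TGF-β2, and at 55.6, 60.8 and 58.9 against 61.6, 64.2 and 68.3 in Nox4 KO. It rose in Nox4 KO by 0.23 (0.07, adjusted p = 0.0416), a call that held in 0 of the 6 fits that leave out 1 library. The WT change of 0.56 (0.19, adjusted p = 0.0792), much of it from the 104 of replicate 2 in a gene of 712 bases, did not pass and was 0.34 without that replicate. It passed in WT in 4 of the 10 alternatives that keep every library, and in 1 of the 6 fits that leave out 1 library.

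**Figure D5:**
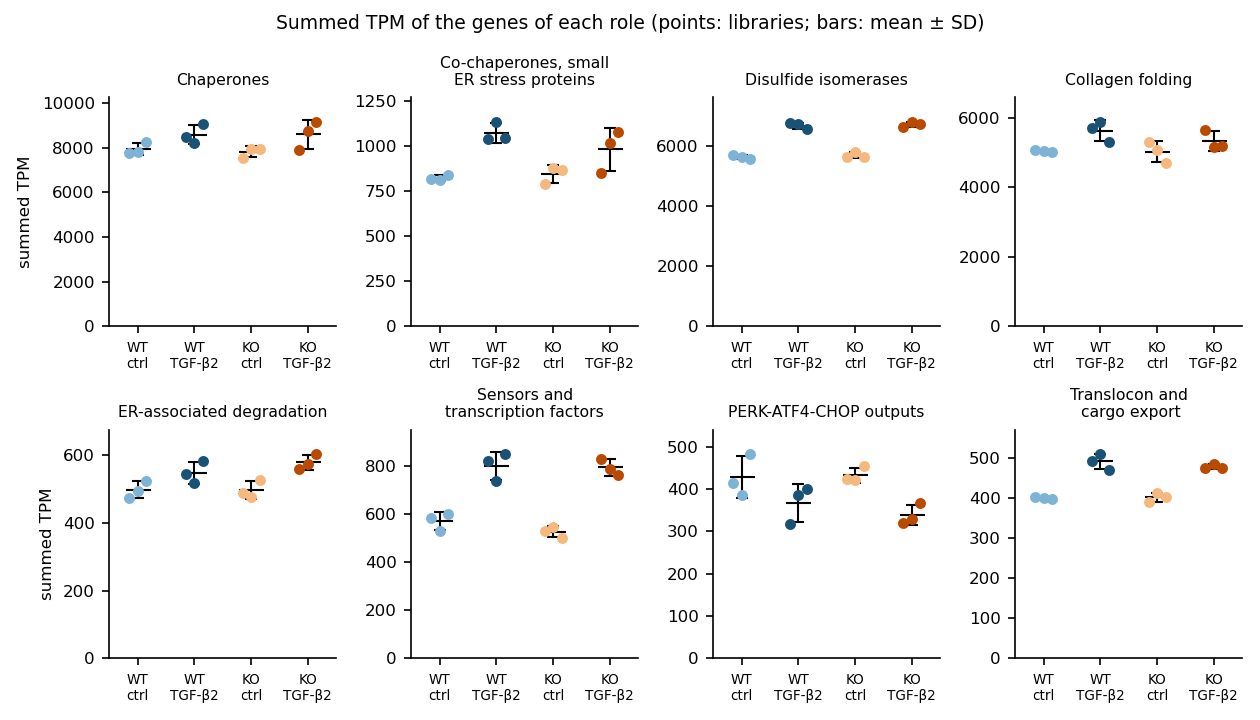
Summed TPM of the genes of each role in each library, by group, with bars for the mean and SD and every axis starting at 0. The sensors and transcription factors go from a mean of 572 to 803 in WT and from 527 to 795 in Nox4 KO, and the PERK-ATF4-CHOP outputs from 427 to 368 and from 433 to 338.

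Summed by role, the sensors and transcription factors went from 572 ± 37.2 to 803 ± 58.5 TPM in WT and from 527 ± 23.2 to 795 ± 34.4 in Nox4 KO (mean ± SD, n = 3). The disulfide isomerases went from 5624 ± 73.0 to 6676 ± 99.7 and from 5686 ± 95.1 to 6715 ± 84.6. The collagen folding proteins, dominated by Serpinh1, went from 5040 ± 29.6 to 5621 ± 298 in WT and from 5012 ± 299 to 5324 ± 280 in Nox4 KO, where the groups overlapped. The chaperones went from 7956 ± 273 to 8592 ± 419 and from 7827 ± 235 to 8602 ± 650, with overlap in both genotypes. The co-chaperones and small ER stress proteins went from 821 ± 16 to 1071 ± 54.1 in WT and, with overlap, from 845 ± 48.2 to 981 ± 118 in Nox4 KO. The genes of ER-associated degradation went from 498 ± 24.4 to 549 ± 32.2 in WT, with overlap, and from 497 ± 25.9 to 579 ± 22.3 in Nox4 KO, and those of the translocon and cargo export from 401 ± 2.86 to 492 ± 19.3 and from 403 ± 11.3 to 479 ± 5.67. The PERK-ATF4-CHOP outputs, of which Ddit3 was the most abundant, went from 427 ± 49.6 to 368 ± 45.2 in WT, with overlap, and from 433 ± 17.9 to 338 ± 24.5 in Nox4 KO, without overlap, while 2 of the 4 genes had a positive log2 fold change in each genotype.

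The calls were also counted by promoter element. Of the 10 genes with an element of either form, 5 rose in WT and 3 in Nox4 KO, with median log2 fold changes of 0.33 and 0.21. Of the 21 genes with a promoter sequence and no element, 5 rose in WT, and 11 rose and 1 fell in Nox4 KO, with medians of 0.35 and 0.26. Of the 5 genes with no promoter sequence, 4 rose in WT and 3 in Nox4 KO, with medians of 0.57 and 0.48. Creb3l2 and Xbp1 were among those without an element, whereas Hspa5, Syvn1 and Herpud1 carried one. These counts and medians are a description and were not tested against each other.

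The comparison of the genotypes asks whether loss of NOX4, which makes hydrogen peroxide at intracellular membranes, altered these genes. Between Nox4 KO and WT in control, 0 of the 36 genes passed with edgeR (0% of 10767 genes tested) and 0 with DESeq2, which called 9 of all genes higher and 19 lower. At an unadjusted p under 0.05, 1 gene did, against 5.54% of all genes: Ern1, at -0.22 (0.08, unadjusted p = 0.0342). After TGF-β2, 0 passed with edgeR (0% of 10439) and 0 with DESeq2, which called 8 of all genes higher and 8 lower, and 0 were under an unadjusted 0.05, against 3.23% of all genes. The log2 differences lay between -0.22 (Ern1) and 0.18 (Sdf2l1) in control, with standard errors of 0.05 to 0.16, and between -0.33 (Sdf2l1) and 0.19 (Sel1l) after TGF-β2, with standard errors of 0.08 to 0.29.

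The test of whether the response to TGF-β2 differed between the genotypes gave 0 of the 36 genes (0% of 10890 genes tested) with edgeR and 0 with DESeq2, which called 0 of all genes higher and 6 lower. At an unadjusted p under 0.05, 1 gene did, against 2.68% of all genes: Edem1, with a difference of 0.21 (0.09, unadjusted p = 0.0408) towards the larger rise in Nox4 KO. The differences ranged from -0.51 (0.31) for Sdf2l1 to 0.39 (0.33) for Ern1, and without WT TGF-β2 replicate 2 these were -0.29 and 0.11. With the length trend of each library removed, 0 of the 36 genes, Edem1 included, were under an unadjusted p of 0.05. So genes that passed in one genotype and not in the other, such as Manf, Creld2, Edem1, Ern1 and Ddit3, were not shown to differ between them, and with 3 libraries a group a difference of the size of these standard errors could not have been seen.

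Other genes of the same pathways were counted for comparison. Over all genes tested, 10.4% rose and 12.2% fell in WT, and 15.1% rose and 14.9% fell in Nox4 KO. The lists were not tested against these shares. Of 12 other genes of the translocon and signal peptidase, 6 rose in WT and 8 in Nox4 KO, and of 20 genes of COPII export, 7 and 14 rose, and 0 fell in either list. Of 17 other ER folding and redox enzymes, 5 rose in WT, and 8 rose and 2 fell in Nox4 KO. Among them Fkbp11, a prolyl isomerase of the secretory pathway, rose past a fold of 2 in WT (1.13, standard error 0.14, adjusted p = 0.00328) and by 0.91 in Nox4 KO. Of 14 other genes of ER-associated degradation, 2 rose in WT, and 5 rose and 1 fell in Nox4 KO, and of 14 genes of N-glycosylation, 3 and 5 rose. Of 12 cytosolic heat shock genes, 1 rose and 1 fell in WT, and 2 rose and 1 fell in Nox4 KO.

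The remaining list, other stress sensors and genes of the ATF4 branch, had calls in both directions: of 17 genes, 1 rose and 4 fell in WT, and 4 rose and 5 fell in Nox4 KO, while 10 had a positive log2 fold change in WT and 9 in Nox4 KO. Past a fold of 2 were Cebpb, a bZIP factor that pairs with CHOP, and Stc2, a secreted glycoprotein induced by ER stress, in Nox4 KO. Cebpb fell by 1.30 (standard error 0.25, adjusted p = 0.0141) and Stc2 by 1.11 (0.13, adjusted p = 0.00414). In WT, Stc2 fell by 0.60 (0.16, adjusted p = 0.0369). Between the genotypes and in the interaction, 0 genes of these lists passed with edgeR.

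Some of the counts share sequence with other genes. Exons of 8 of the 36 genes overlap those of a neighbour, and the use of strand in counting is not stated. Mars, which overlaps Ddit3 on the opposite strand, had log2 fold changes of 0.27 in WT and 0.19 in Nox4 KO, opposite in sign to Ddit3. Dcaf1, which overlaps Manf, had -0.05 and 0.27. Reads that mapped to more than 1 place were discarded by the authors. On either strand, 53.4% of the 50-base stretches of Ppib and 31.5% of those of Sec61b are also found in transcripts of other genes. For Ppib these include Snx22, which overlaps its exons on the opposite strand, so the share is not a measure of discarded reads. The levels of these 2 genes are uncertain. For the other 34 genes the share was at most 13.6% (Hsp90b1).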

How the data were processed

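Single-end 50-base reads of 12 libraries were mapped by the authors to GRCm38 with STAR 2.4, reads with more than 1 location were discarded, and reads on the merged exons of protein-coding isoforms were counted with featureCounts 1.4.6 (versions per the submitters' processing notes). The deposited values are these raw counts per gene, with no normalization. Lengths, positions and symbols were taken from GENCODE M21, which matched all 21556 identifiers, and RPKM and TPM were computed from counts, lengths and library totals.

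Each pair of groups was fitted on its own 6 libraries with edgeR 4.0.16 (R 4.3.3) by the quasi-likelihood test after TMM normalization, over genes whose mean reached an RPKM of 1 in either group, with Benjamini-Hochberg adjustment over all genes tested. The filter kept all 36 genes in every comparison. A call is an adjusted p under 0.05, and a fold of at least 2 is a stricter rule. Standard errors of log2 fold changes were derived from the F statistic. The interaction was fitted over all 12 libraries. The procedure was tested on simulated counts. The length trend of a library was removed with an offset fitted to its deviations against gene length. Motifs were searched on both strands with Python 3.11.15.

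The 36 genes and the pathway lists were chosen with earlier results of these data known. Values are given for every gene of the 36, in every library for those called in a comparison and for the sensors, and for other pathway genes only past a fold of 2 with TGF-β2. Per library values were also given for Trib3, chosen after its values were seen.

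Replicate numbers are shared between groups in the labels. Nox4 KO libraries of 1 number, control and TGF-β2, deviated together from their group means (correlations 0.771, 0.685 and 0.748 over genes), and this check is the only source of the pairing. The WT libraries (0.072, 0.437 and 0.532) were not taken as pairs. The alternatives were DESeq2 1.42.0, RLE, upper-quartile and library-size scaling, no filter, a mean RPKM of at least 5, all 12 libraries in 1 fit, a replicate block, and leaving out each library. Added after seeing the data were library totals of all genes in TMM and the removal of the length trend. Protein sequences were not used here.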

Additional observations from a re-analysis of the deposited data

How the results depend on the processing

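The number of the 36 genes called with TGF-β2 depended on the setting more than their direction did. In WT, 14 were called (2425 of all genes), 22 with DESeq2 (3383 of all) and 22 with all 12 libraries in 1 fit (3398 of all), 1 at a fold of at least 2, and between 2 and 19 when 1 library was left out. The 2 came without WT control replicate 1 (1325 of all genes). Without WT control replicate 2 (1376 of all) or WT TGF-β2 replicate 1 (1232 of all), 4 were called, and 9 without WT control replicate 3 (1437 of all). In Nox4 KO, 18 were called (3243 of all genes), 1 at a fold of at least 2 (735 of all), and between 8 and 19 when 1 library was left out. The 8 came without TGF-β2 replicate 2 (1134 of all), and 11 were called without control replicate 1 (1616 of all) or 2 (1783 of all). With the replicate block, 27 were called in Nox4 KO (5842 of all genes). In WT, where the pairing was not established, the block gave 17 (3080 of all). It gave 0 in the genotype comparisons and the interaction. The same 0 held under every other alternative run. Removal of the length trend gave 21 calls in each genotype (3659 of all genes in WT and 3227 in Nox4 KO). Creb3l2 was called in every setting run in both genotypes, and no called gene reversed. Other calls held less often when 1 of the 6 libraries of a comparison was left out. In Nox4 KO, Sec61b held in 0 of the 6 fits, Syvn1 and Mia3 in 1, and Dnajc3 and Eif2ak3 in 2. Pdia5, Fkbp10, Edem1, Ern1, Xbp1, Creb3l1 and Ddit3 held there in all 6. In WT, Pdia5 held in 1, and Dnajb11, Manf, P4hb, Fkbp10, Syvn1 and Ssr1 in 2. The TGF-β2 over control ratio of the summed share was 1.11 in Nox4 KO, and between 1.09 and 1.14 with 1 library left out. The 100 most abundant genes include 6 of the 36. Without those 100 genes in the sum and the total, the Nox4 KO ratio was 1.24 for the members that remained. Their mean share went from 0.863% to 1.07% in Nox4 KO and from 0.860% to 1.09% in WT. On the forward strand alone, 0 of the 31 promoters held the ATF4 site, against 2 on both. The first form of the ER stress element was in 6 of the 31, against 8 on both. Over all 32851 promoters the counts were 173 against 294 for the ATF4 site and 22 against 39 for the element.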
